A study of Mus musculus with 3 samples.

Results

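The matrix metalloproteinases, their tissue inhibitors, and the ADAMTS and ADAMTS-like families were followed through the stromal vascular fraction of mouse fat, which holds the progenitor, vascular, nerve and immune cells that remain once adipocytes are removed. Members were every gene whose symbol begins with Mmp, Timp, Adamts or Adamtsl followed by its number. They came to 51 of the 28692 genes in the count tables, with 23 Mmp, 4 Timp, 19 Adamts and 5 Adamtsl genes. The cells came from the inguinal fat pads of C57BL/6 mice, and each of 3 treatments had 1 single-cell library. The CL library came from mice injected intraperitoneally with the β3-adrenergic receptor agonist CL 316,243 at 1 mg/kg for 3 days. The cold library came from mice kept at 4 C for 3 days, and the saline library from saline-treated mice. The sources used here do not give the number, sex or age of the animals behind a library, whether the cold mice were injected, or how many days saline was given.

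Matrix metalloproteinases (MMPs) are zinc enzymes that cut collagens, other matrix proteins and many secreted factors, either after secretion or from the cell membrane. Tissue inhibitors of metalloproteinases (TIMPs) block their active sites, and the binding of TIMP2 to the membrane enzyme MMP14 also takes part in the activation of proMMP2. ADAMTS enzymes are secreted relatives that trim procollagens or cut large proteoglycans, while the ADAMTS-like proteins resemble them but lack the catalytic domain. In fat, the matrix around adipocytes and vessels is remodelled as the tissue expands, shrinks or gains blood vessels, and progenitors, macrophages and vascular cells are known sources of these genes.

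Most genes of the Mmp array on mouse chromosome 9 have the same short letters in their promoters, shown here before their levels because the array holds members that different cell classes carried. The array holds 10 members (Mmp13, Mmp12, Mmp1b, Mmp3, Mmp1a, Mmp10, Mmp8, Mmp27, Mmp20 and Mmp7) within chr9:7272514-7699585, a stretch of 427 kb in GRCm38 coordinates from GENCODE M21. RefSeq promoters (GRCm38.p6, 250 bases before to 50 after the start) were available for 36 of the 51 members, 39 promoters in all, including all 10 of the array. The letters TGANTCA, where N is any base, were searched on both strands. They take in TGAGTCA and TGACTCA, the site recognised by the AP-1 (Fos and Jun) transcription factors, but are looser than that site. They occurred in 8 of the 36 matched members, or 8 of the 39 promoters, and all 8 were in the array. Mmp8 and Mmp27 had none. Mmp12 and Mmp7 each also had a promoter without a match. For Mmp12 it was chr9:7344147-7344446, the nearer to its GENCODE start, and for Mmp7 it was chr9:7692091-7692390. Over all 32851 RefSeq promoters of that length, 7.81% held these letters. A match is a description of the letters and shows no binding. Each 21-base site is given on the gene's strand with the match in capitals:
Mmp13: aaagtggTGACTCAtcactat
Mmp12: tcaacagTGAGTCAgatagag
Mmp1b: caaagccTGAGTCAtatagcc
Mmp3: gcaattaTGAGTCAgttttcg
Mmp1a: tcaaccaTGAGTCAcatagcc
Mmp10: acccatgTGAGTCAtgcttag
Mmp20: tgagacaTGAATCAtcactta
Mmp7: gtgcaaaTGAGTCAcctattt
The first capital lay between position -95 (Mmp20) and position -35 (Mmp13) from the start, and at -46 in Mmp3. TATAAA occurred in 12 of the 39 promoters of members, against 13.6% of all promoters, and GGGCGG in 22 of the 39, against 35.7%, both searched on both strands.

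The promoters of Mmp3, Timp1 and Adamts1, which are among the genes described below, are printed whole, and again the capitals mark TGANTCA. Mmp3 is at chr9:7445572-7445871 (+), Timp1 at chrX:20869916-20870215 (+) and Adamts1 at chr16:85803064-85803363 (-), all from RefSeq on GRCm38.p6. Neither Timp1 nor Adamts1 has these exact letters in this window, and variants of them were not searched:
Mmp3: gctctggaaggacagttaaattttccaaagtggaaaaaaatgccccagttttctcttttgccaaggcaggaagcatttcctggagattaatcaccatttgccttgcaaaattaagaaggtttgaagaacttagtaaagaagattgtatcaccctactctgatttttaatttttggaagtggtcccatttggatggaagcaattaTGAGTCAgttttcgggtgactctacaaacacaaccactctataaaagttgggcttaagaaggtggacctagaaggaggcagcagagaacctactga
Timp1: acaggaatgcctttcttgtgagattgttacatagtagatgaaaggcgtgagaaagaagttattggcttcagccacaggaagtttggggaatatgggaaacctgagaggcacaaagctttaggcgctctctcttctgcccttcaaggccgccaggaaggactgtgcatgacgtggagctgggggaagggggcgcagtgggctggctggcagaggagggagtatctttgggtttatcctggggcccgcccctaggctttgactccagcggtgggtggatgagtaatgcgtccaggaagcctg
Adamts1: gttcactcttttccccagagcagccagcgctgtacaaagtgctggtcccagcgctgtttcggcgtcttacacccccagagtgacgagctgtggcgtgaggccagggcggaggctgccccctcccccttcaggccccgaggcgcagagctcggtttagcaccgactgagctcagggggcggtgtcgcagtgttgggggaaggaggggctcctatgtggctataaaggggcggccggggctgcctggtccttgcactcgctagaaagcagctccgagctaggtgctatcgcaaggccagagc

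There were 7943 barcodes in the CL, 5050 in the cold and 7674 in the saline library. Their UMIs (unique molecular identifiers, which count RNA molecules without PCR copies) totalled 29323106 in CL, 19899223 in cold and 25875379 in saline. Barcodes with at least 500 detected genes and at most 15% mitochondrial UMIs were kept, and called doublets were removed. This left 6650 CL, 3858 cold and 6184 saline cells, with medians of 3837, 3623 and 3209.5 UMIs and of 4.10%, 6.49% and 5.69% mitochondrial UMIs. Between 4 and 9 barcodes were shared by any pair of libraries. Clusters were made without the member genes and named by fixed markers of 24 cell classes. Each class is written as "X-like", and 15 classes had at least 50 cells over the 3 libraries. All UMIs of a class in a library were summed, and levels are given per 1000000 of them (CPM), with exact Poisson 95% intervals in parentheses. Differences are log2 ratios of CPM with exact conditional binomial 95% intervals, and a positive ratio means that the first-named library was the higher. Both kinds of interval cover counting error only and take UMIs as independent. With 1 library per treatment there is no replicate spread and no test, and a difference between treatments cannot be told apart from one between animals or preparations. The tags come from RNA 3' ends, so levels of different genes are not ranked.

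Members were a small part of the RNA, with 177790 UMIs or 0.255% of the total in 16692 cells. Of the 51 members, 40 had at least 20 UMIs over all cells. The other 11 had fewer, and the interstitial collagenase genes Mmp1a and Mmp1b, which are close copies of each other, had 0 in all 3 libraries. Exons of 13 members overlap those of a gene on the other strand, among them Timp3, Timp4, Mmp12, Mmp19, Adamts4 and Adamts9. Whether the counting used strand was not given in the sources used here, so part of their counts could be from the partner gene.

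The members differed in the cell class where they were highest, and members of one functional group could lie in different classes. With the libraries pooled, 14 of the 40 detected members were highest in ASPC-like cells (adipose stem and progenitor cells, the fibroblast-like cells that give rise to adipocytes). Pericyte/smooth muscle-like, Schwann-like and lymphatic endothelial-like cells were highest for 5 members each. In 6 cases the highest class had under 20 UMIs of the gene, 3 in lymphatic endothelial-like, 2 in Schwann-like and 1 in pericyte/smooth muscle-like cells, so those places are not established. Neutrophil-like, NK cell-like, monocyte-like and mature dendritic-like cells led for 2 each, and endothelial-like, type 2 dendritic-like and T cell-like cells for 1 each. The libraries filled the classes unequally, so the order was also taken within each library: of 27 members with at least 20 UMIs in their highest class and with that class at 50 cells in every library, the same class was highest in all 3 libraries for 18, among the 12 classes of that size. The gelatinase gene Mmp2 had 741 CPM in ASPC-like cells and 260 CPM in lymphatic endothelial-like cells, the next class, although the 13 lymphatic endothelial-like cells of the CL library had 867 CPM. Mmp9, the other gelatinase gene, had 632 CPM in neutrophil-like cells (100 UMIs) and 162 CPM in macrophage-like cells. Among classes of at least 50 cells in every library, macrophage-like cells were highest for Mmp9 in all 3 libraries. The 2 gelatinase genes were thus led by different classes. Mmp3 (stromelysin 1) reached 596 CPM in ASPC-like cells and 8.13 CPM in the next class. Mmp8, the neutrophil collagenase gene, had 297 CPM in neutrophil-like cells and 9.96 CPM in monocyte-like cells. Its array neighbour Mmp27 had 30.3 CPM in ASPC-like cells and at most 1.06 CPM elsewhere, and Mmp7 (matrilysin) 8.47 CPM in mature dendritic-like cells. The members of the chromosome 9 array were thus led by several different classes, for genes without the letters TGANTCA and for genes with them alike.

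Among membrane-bound MMPs, Mmp14 (MT1-MMP, an activator of proMMP2) had its highest class change with the library. It was highest in macrophage-like cells in CL, at 327 CPM against 298 CPM in ASPC-like cells, and in ASPC-like cells in cold, at 394 CPM, and in saline, at 357 CPM. Mmp15 led in Schwann-like cells at 177 CPM, followed by endothelial-like cells at 56.3 CPM. The TIMPs also differed by class. Timp1 had 364 CPM in ASPC-like, 80.5 CPM in macrophage-like and 0 in B cell-like cells. Timp2 had 2332 CPM in ASPC-like and 852 CPM in macrophage-like cells, against 12.97 CPM in B cell-like cells. Timp3, which unlike the other TIMPs binds to the matrix, was led by pericyte/smooth muscle-like cells at 1979.5 CPM. Timp4 was highest in endothelial-like cells at 514.5 CPM, followed by pericyte/smooth muscle-like cells at 186 CPM.

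Adamts2, the main procollagen I N-proteinase gene, had 381 CPM in ASPC-like cells, but its relative Adamts14 was highest in NK cell-like cells at 63.4 CPM, against 11.3 CPM in ASPC-like cells. That Adamts14 level was similar in each library, at 69.8 CPM in CL, 57.0 CPM in cold and 65.9 CPM in saline NK cell-like cells. Among the proteoglycanases, Adamts5 (aggrecanase 2) had 851 CPM in ASPC-like and 190 CPM in Schwann-like cells. Adamts1, Adamts4 and Adamts9 were instead highest in vascular classes. Adamts1 was higher in pericyte/smooth muscle-like than in endothelial-like cells in every library, at 638 against 370 CPM in CL, 558 against 431 CPM in cold and 1769 against 1578 CPM in saline. Lymphatic endothelial-like cells were above the pericyte/smooth muscle-like class for Adamts1 in cold and below it in CL and saline. Adamts4 (aggrecanase 1) had 239 CPM in the pericyte/smooth muscle-like class. Adamts20 was almost confined to Schwann-like cells, at 71.1 CPM against 0.671 CPM in the next class. It had 91.2 CPM in CL, 80.2 CPM in cold and 50.1 CPM in saline Schwann-like cells, from 7, 16 and 8 UMIs.

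**Figure D1:**
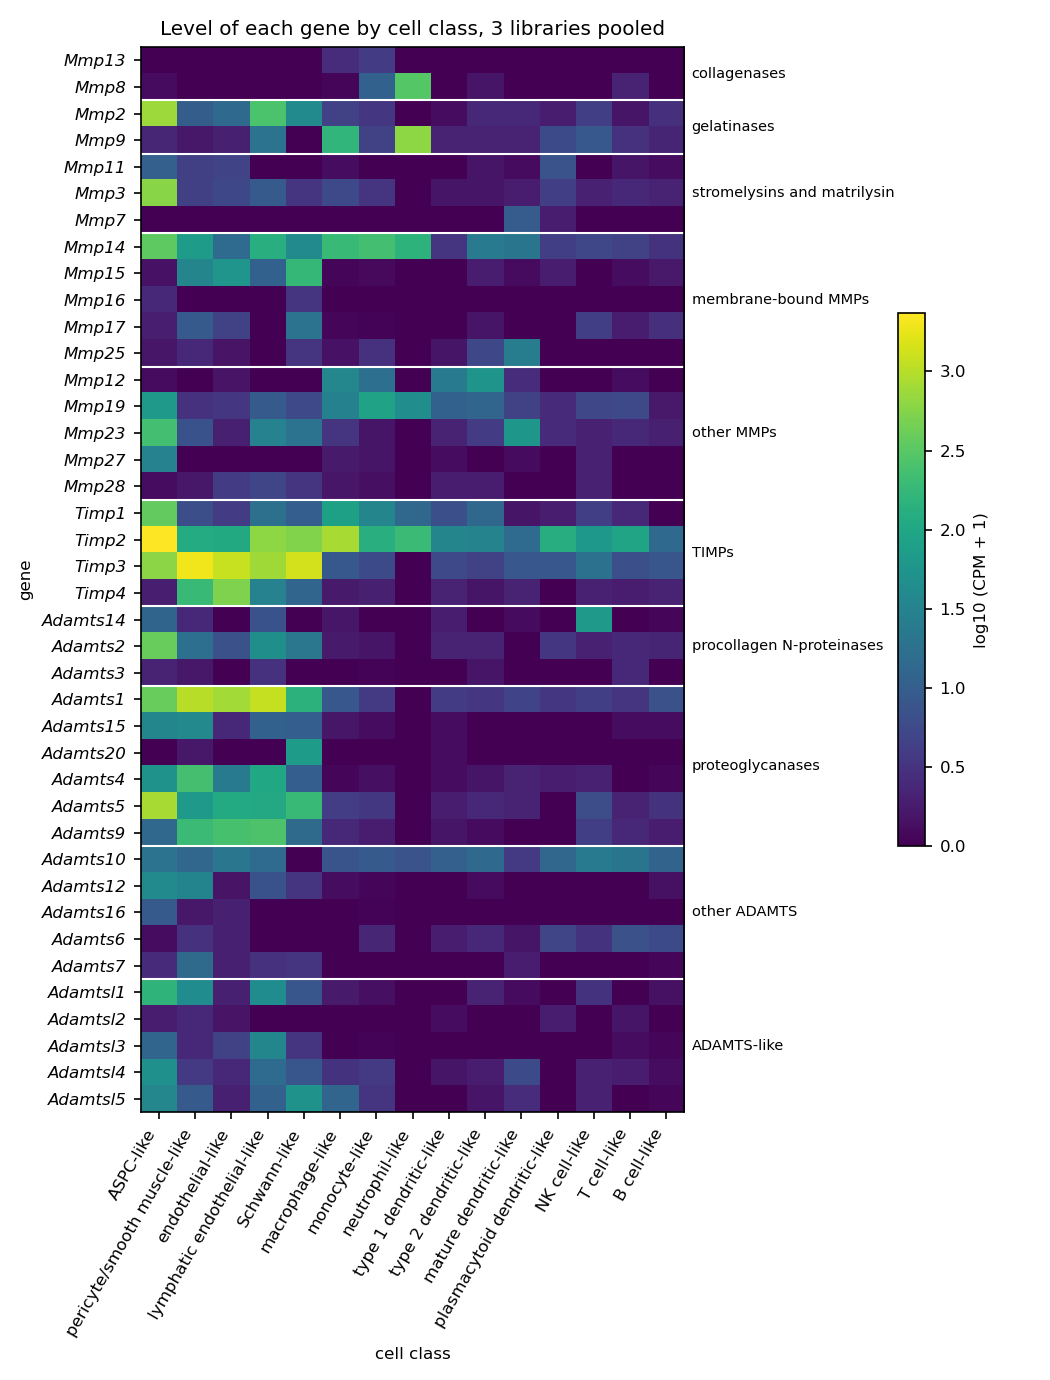
Level of each of the 40 members with at least 20 UMIs (rows, grouped by role) in the 15 cell classes of at least 50 cells (columns), as log10 of CPM + 1 with the 3 libraries pooled. By pooled CPM, ASPC-like cells were highest for Mmp2, Mmp3, Timp2 and Adamts5, and the vascular classes for Timp3, Timp4, Adamts1 and Adamts9. The 80 neutrophil-like cells were highest for Mmp8 and Mmp9.

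In ASPC-like cells (1073 CL, 594 cold and 1220 saline cells) the comparisons asked which proteases and inhibitors of the progenitors differed after β3-agonist treatment or cold. Set against saline, Timp1 was higher and Timp3 lower in the CL library, and Adamts1 and Adamts4 were lower in the cold library. The other members tested lay within 2-fold of saline. Of the 51 members, 24 had at least 20 UMIs in the library with more and entered each comparison. In CL over saline, 1 member (Timp1) was at least 2-fold higher, against 5.42% of all 10927 genes tested, and 1 (Timp3) at least 2-fold lower, against 2.08%. In cold over saline, no member was 2-fold higher (1.15% of all genes) and 2, Adamts4 and Adamts1, were 2-fold lower (2.05%). Between CL and cold, Timp1 and Adamts4 were higher in CL (5.95%) and Timp2, Timp3 and Mmp11 lower (2.71%). The median log2 ratio of the 24 members was -0.22 in CL over saline against 0.07 over all genes tested, 0.17 in cold over saline against 0.07, and -0.35 in CL over cold against 0.01. The genes past 2-fold in any of these comparisons were 3 TIMPs, 2 proteoglycanases and Mmp11.

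Timp1 (chrX:20870166-20874735, +), a secreted inhibitor of most soluble MMPs, had 836 CPM (815 to 858) in CL, 78.3 CPM (70.3 to 87.1) in cold and 89.0 CPM (82.5 to 95.9) in saline ASPC-like cells. The log2 ratio was 3.23 (3.12 to 3.35) in CL over saline, a 9.40-fold higher level, and 3.42 (3.26 to 3.58) in CL over cold. The CL library stood alone, and the intervals of the cold and saline libraries overlapped. The share of cells with a Timp1 UMI followed the level, at 62.5% in CL, 21.7% in cold and 19.0% in saline cells, whose median depths were 6521, 7439.5 and 6419.5 UMIs. With every cell thinned to 1000 UMIs, which left out 8 CL, 0 cold and 2 saline cells, the shares were 31.5% in CL, 6.40% in cold and 5.42% in saline cells. No B cell-like cell had a Timp1 UMI (0 of 216 CL, 0 of 1353 cold and 0 of 1570 saline cells, at median depths of 1607, 2461 and 1692 UMIs), and the exact upper limits of these shares were 1.69%, 0.272% and 0.235%. Some other immune classes had most in CL. Timp1 had 18 CL, 0 cold and 2 saline UMIs in type 1 dendritic-like cells, and 4, 1 and 0 in T cell-like cells. Mature dendritic-like cells had 0, 1 and 1. No correction for free RNA was made, and its part in the Timp1 difference was not tested. Monocyte markers were also higher in CL: the 8 of them summed to 1745 CPM in CL, 364 CPM in cold and 407 CPM in saline ASPC-like cells, with none at 0 in CL or saline and 1 at 0 in cold. The 10 macrophage markers summed to 115 CPM in CL, 27.5 CPM in cold and 81.0 CPM in saline cells. The 8 neutrophil markers were lowest in CL, at 314 CPM in CL, 455 CPM in cold and 360 CPM in saline cells. Values of single markers are not given for these sums or for the marker sums of other classes below. A single gene of a list, such as Hp in the monocyte list, could therefore make up much of a sum. The part of these markers in the Timp1 difference was not tested.

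Timp2 and Timp3 were lower in the CL library. Timp2 had 1492 CPM in CL, 3294 CPM in cold and 2565 CPM in saline ASPC-like cells, with log2 ratios of -0.78 (-0.82 to -0.75) in CL over saline and -1.14 (-1.18 to -1.11) in CL over cold. Timp3 had 355 CPM in CL, 743 CPM in cold and 746 CPM in saline cells, and a log2 ratio of -1.07 in both CL over saline and CL over cold. The cold library was thus highest for Timp2, and for Timp3 it was level with saline. Summed over the family, TIMP levels came to 2684 CPM in CL, 4115 CPM in cold and 3402 CPM in saline cells.

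The MMPs of ASPC-like cells differed less than Timp1. Mmp3, a stromelysin that cuts proteoglycans and activates other proMMPs, had 737 CPM in CL, 634 CPM in cold and 444 CPM in saline cells, with log2 ratios of 0.73 (0.67 to 0.79) in CL over saline and 0.51 (0.44 to 0.59) in cold over saline. Mmp2 had 565 CPM in CL, 903 CPM in cold and 811 CPM in saline cells, and a log2 ratio of -0.52 (-0.58 to -0.46) in CL over saline. Mmp3 was therefore lowest in saline and Mmp2 lowest in CL, both by less than 2-fold. Mmp14 had 298 CPM in CL, 394 CPM in cold and 357 CPM in saline cells. Mmp23, a membrane-anchored MMP, had 229 CPM in CL, 288 CPM in cold and 199.5 CPM in saline cells. Mmp11 (stromelysin 3) was the only MMP past 2-fold in this class, with 6.15 CPM in CL, 15.1 CPM in cold and 10.2 CPM in saline cells and a log2 ratio of -1.30 (-1.88 to -0.72) in CL over cold. The remaining pair with 20 UMIs were within 2-fold in each of the 3 comparisons, Mmp19 with 77.3 CPM in CL, 47.2 CPM in cold and 57.8 CPM in saline cells and Mmp27 with 28.4 CPM in CL, 39.4 CPM in cold and 26.8 CPM in saline cells. The MMP sum was 1948 CPM in CL, 2325 CPM in cold and 1912 CPM in saline cells.

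The proteoglycanases Adamts1 and Adamts4 were lowest in the cold library. Adamts1 had 347 CPM (333 to 361) in CL, 243.3 CPM (229 to 258) in cold and 501 CPM (486 to 517) in saline cells, with a log2 ratio of -1.04 (-1.14 to -0.95) in cold over saline. Adamts4 had 51.7 CPM in CL, 25.2 CPM in cold and 69.6 CPM in saline cells, with a log2 ratio of -1.47 (-1.78 to -1.17) in cold over saline. Adamts5, another proteoglycanase gene and a neighbour of Adamts1 on chromosome 16, went the other way and was highest in cold, with 797 CPM in CL, 1037 CPM in cold and 796 CPM in saline cells. Adamts2 had 298 CPM in CL, 468 CPM in cold and 408 CPM in saline cells. Adamtsl1, an ADAMTS-like matrix protein, had 164 CPM in CL, 177 CPM in cold and 137 CPM in saline cells, and the ADAMTS-like sum stayed between 237 and 286 CPM. Since cell dissociation can induce early-response genes such as Fos, Jun and Egr1, their level was taken beside these genes. Summed over 10 such genes it was 8865 CPM in CL, 11416 CPM in cold and 11946 CPM in saline ASPC-like cells, with no gene past 2-fold in any comparison, and its part in the Adamts1 and Adamts4 differences was not tested.

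**Figure D2:**
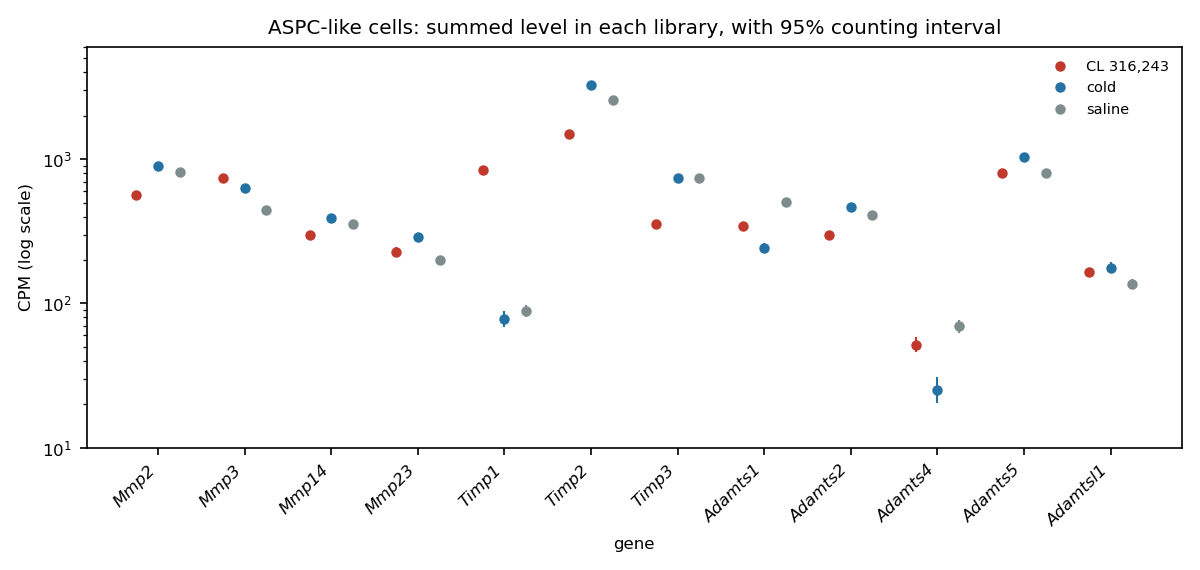
Summed level in ASPC-like cells of 12 members, as CPM on a log scale, for the CL 316,243, cold and saline libraries (1 point each, with the 95% counting interval). Timp1 is at 836 CPM in CL against 78.3 CPM in cold and 89.0 CPM in saline, and Timp2, Timp3 and Mmp2 are lowest in CL.

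Other genes of the pathway were also counted in ASPC-like cells, beside the share of all genes tested. Of 42 related genes tested there (6 of plasminogen activation, 7 MMP regulators, 8 ADAM sheddases, 7 cathepsin and cystatin genes and 14 matrix substrates), none passed 2-fold in cold over saline. Of all genes, 1.15% were higher and 2.05% lower. In CL over saline, 1 of 42 was higher (5.42% of all genes), Ctss (cathepsin S) at a log2 ratio of 1.86. The 1 lower (2.08%) was Comp, a cartilage matrix protein cut by ADAMTS enzymes, at -3.25. Set against cold, 2 of 42 were higher in the CL library (5.95% of all genes), Ctss and Vcan (versican, a substrate of ADAMTS1 and ADAMTS5). The 4 lower (2.71%) were Comp, Lamb1, Ctsk and Adam33.

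ASPC-like cells fell into 4 clusters that the libraries filled unequally, so each level was also taken within a cluster. An interstitial progenitor-like cluster (all 7 of its markers passed) held 236 CL, 326 cold and 672 saline cells. A committed preadipocyte-like cluster (8 of 9 markers) held 324 CL, 158 cold and 359 saline cells, and a Gdf10/Fmo2/F3 stromal-like cluster (7 of 8) held 119, 110 and 158. An inflammatory progenitor-like cluster (3 of 5 markers) held 394 CL, 0 cold and 31 saline cells. Its leading gene was the member Timp1, followed by Prg4 and Lbp, with Cxcl5 and Lcn2 further down, although clusters were made without the member genes. It is nearly all CL cells, so a cell type and a feature of that library cannot be told apart.

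Timp1 was higher in the CL library within clusters as well. In committed preadipocyte-like cells it had 711 CPM (677 to 746) in CL, 114.5 CPM (96.3 to 135) in cold and 40.4 CPM (32.7 to 49.4) in saline cells, a log2 ratio of 4.14 (3.84 to 4.45) in CL over saline. Of the 139 cold UMIs there, 3 cells held 104. In Gdf10/Fmo2/F3 stromal-like cells it had 848 CPM in CL, 225 CPM in cold and 205 CPM in saline cells, with 2.05 (1.82 to 2.28) in CL over saline. In interstitial progenitor-like cells of this split it had 69.0 CPM in CL, 12.2 CPM in cold and 32.6 CPM in saline cells. The log2 ratio there was 1.08 (0.68 to 1.48) in CL over saline. At resolution 1 the size of the CL difference thus ran from 1.08 to 4.14 between these 3 clusters, which was not tested. In inflammatory progenitor-like cells Timp1 had 1296 CPM in CL and 1052 CPM in saline cells, a log2 ratio of 0.30 (0.12 to 0.49), and this cluster held 59.2% of the CL and 37.2% of the saline Timp1 UMIs of the class.

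The Timp3 difference was largest in one of the 4 clusters. In committed preadipocyte-like cells Timp3 had 303.5 CPM in CL, 944 CPM in cold and 903 CPM in saline cells, a log2 ratio of -1.57 (-1.70 to -1.45) in CL over saline. In interstitial progenitor-like cells it had 594 CPM in CL, 806 CPM in cold and 788 CPM in saline cells, a log2 ratio of -0.41 (-0.52 to -0.29). In Gdf10/Fmo2/F3 stromal-like cells the ratio was -0.85, and in inflammatory progenitor-like cells 0.05. Timp2 was lower in CL than in saline in all 4 clusters, by less than 2-fold in each, at log2 ratios of -0.21 in interstitial progenitor-like, -0.67 in committed preadipocyte-like, -0.42 in Gdf10/Fmo2/F3 stromal-like and -0.71 in inflammatory progenitor-like cells.

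Mmp3 was highest in committed preadipocyte-like cells, with 1405 CPM in CL, 1163 CPM in cold and 847 CPM in saline cells. In interstitial progenitor-like cells it had 277 CPM in CL, 224.5 CPM in cold and 136 CPM in saline cells, a log2 ratio of 1.03 in CL over saline. The order CL, cold, saline held in these 2 clusters, and in Gdf10/Fmo2/F3 stromal-like cells cold was highest, with 1013 CPM in CL, 1062 CPM in cold and 851 CPM in saline cells. Adamts1 was lowest in cold in each of the 3 clusters with cold cells. It had 303.5 CPM in CL, 235 CPM in cold and 563.5 CPM in saline committed preadipocyte-like cells, and 432 CPM in CL, 247 CPM in cold and 491.5 CPM in saline interstitial progenitor-like cells.

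**Figure D3:**
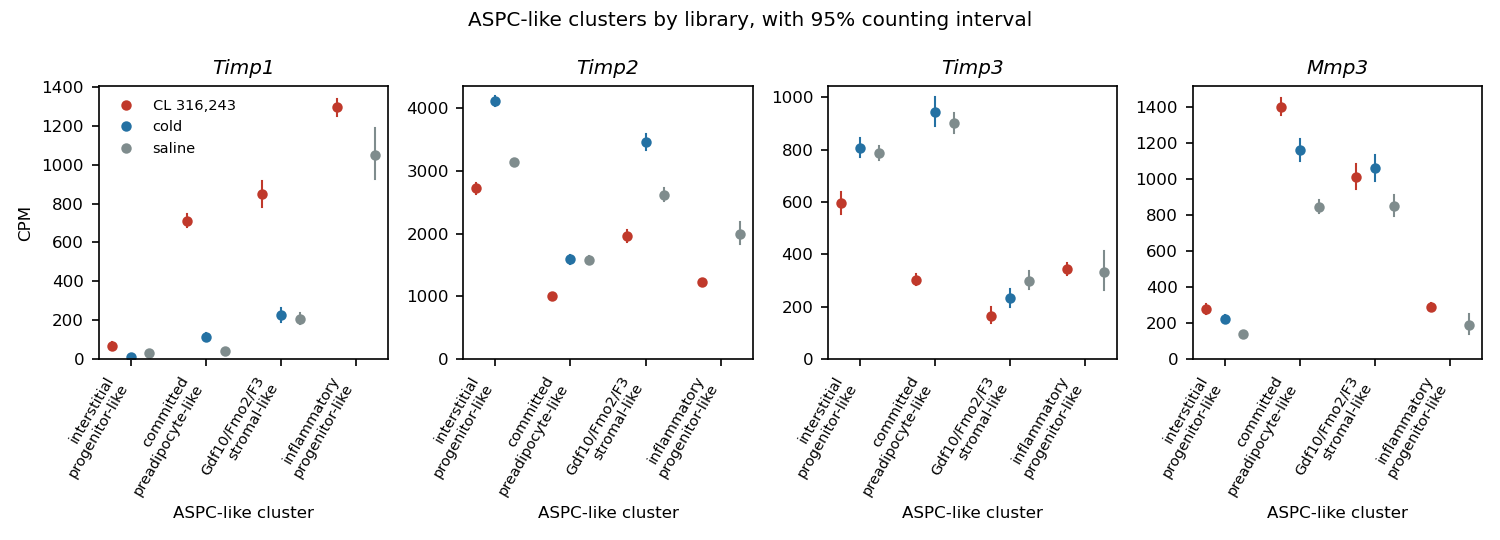
CPM of Timp1, Timp2, Timp3 and Mmp3 in the 4 ASPC-like clusters, for the CL 316,243, cold and saline libraries (points, with 95% counting intervals; cold has no inflammatory progenitor-like cells). Timp1 in committed preadipocyte-like cells is at 711 CPM in CL against 114.5 CPM in cold and 40.4 CPM in saline, and Timp3 there at 303.5 CPM in CL against 944 CPM in cold and 903 CPM in saline.

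In macrophage-like cells (826 CL, 212 cold and 712 saline cells) Mmp14 and Timp1 were higher in the CL library and Mmp9 lower, against both other libraries. Of 10 members tested in CL over saline, 2 were 2-fold higher (Mmp14 and Timp1), against 7.52% of all genes, and 4 were lower (Mmp9, Mmp12, Adamts1 and Adamts10), against 6.76%. In cold over saline, 2 of 10 were higher (Mmp12 and Adamtsl5; 1.57% of all genes) and 2 lower (Timp1 and Adamts1; 3.58%). In CL over cold, 2 of 8 were higher (Timp1 and Mmp14; 10.4%) and 4 lower (Mmp9, Mmp12, Timp2 and Adamtsl5; 7.02%). The median log2 ratio over the members tested was -0.88 in CL over saline against 0.13 over all genes, -0.05 in cold over saline against 0.00, and -0.48 in CL over cold against 0.12.

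Mmp14 (chr14:54431612-54445364, +) had 327 CPM (308 to 347) in CL, 34.0 CPM (23.1 to 48.2) in cold and 41.5 CPM (33.6 to 50.8) in saline macrophage-like cells. Its log2 ratio was 2.98 (2.67 to 3.30) in CL over saline and 3.27 (2.75 to 3.83) in CL over cold. The CL library was alone in its high level, and the other two overlapped. A Mmp14 UMI was found in 52.8% of CL, 5.19% of cold and 6.60% of saline cells (medians of 3919.5, 3696.5 and 2785 UMIs), or in 25.2% of CL, 1.93% of cold and 1.70% of saline cells thinned to 1000 UMIs. In B cell-like cells, which should lack the gene, the shares were 0.463% in CL, 0.222% in cold and 0.701% in saline cells, and 0.476%, 0% and 0.512% after thinning. T cell-like cells did have most in CL, with 13.9 CPM in CL, 1.25 CPM in cold and 2.80 CPM in saline cells, from 7, 2 and 4 UMIs. No correction for free RNA was made, and its part in the Mmp14 difference was not tested.

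Timp1 had 144 CPM (131 to 157) in CL, 0 CPM (0 to 4.04) in cold and 18.6 CPM (13.4 to 25.1) in saline macrophage-like cells, from 485, 0 and 42 UMIs. Its log2 ratio was 2.96 (2.50 to 3.45) in CL over saline. With the cold 0 set to a floor of 3 counts, the CL level was 43.8-fold the cold level, and the cold level was 5.65-fold lower than the saline level. These folds leave out the counting error of the other library. Of the 42 saline UMIs, 3 cells held 21, and 18 cells had any. A Timp1 UMI was found in 17.2% of CL, 0% of cold (exact upper limit 1.72%) and 2.53% of saline cells, or in 8.67% of CL, 0% of cold and 0.993% of saline cells after thinning. The CL library was thus the highest for Timp1 in macrophage-like as in ASPC-like cells.

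Mmp9 (chr2:164940780-164955850, +), the gelatinase that myeloid cells release, had 94.3 CPM (84.2 to 105) in CL, 241 CPM (210 to 275) in cold and 231.5 CPM (212 to 252) in saline macrophage-like cells. The log2 ratio was -1.30 (-1.50 to -1.09) in CL over saline. Timp2 had 608 CPM in CL, 1271 CPM in cold and 1045 CPM in saline cells, also lowest in CL. Mmp19, a soluble MMP that can cut basement membrane proteins, was level, with 30.6 CPM in CL, 28.5 CPM in cold and 26.5 CPM in saline cells.

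Adamts1 was scarce in this class, with 13 CL, 1 cold and 33 saline UMIs, beside early-response genes that summed to 4861 CPM in CL, 7816 CPM in cold and 9302 CPM in saline cells, whose part was not tested.

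Mmp12, the macrophage elastase gene, had 6.82 CPM in CL, 187 CPM in cold and 16.8 CPM in saline macrophage-like cells, a log2 ratio of 3.48 (2.97 to 4.03) in cold over saline. It rests on few cells: 3 cells held 20 of 23 CL, 164 of 171 cold and 34 of 38 saline UMIs, so its intervals are far too narrow. With at most 5% mitochondrial UMIs there were 16 UMIs in 522 CL, 0 in 50 cold and 32 in 208 saline cells. The direction turned there, to a log2 ratio of -1.51 in cold over saline with the cold 0 set to the floor of 3 counts. Mmp12 was as concentrated in monocyte-like cells, where 3 cells held 73 of 85 CL, 52 of 54 cold and 71 of 85 saline UMIs. In type 2 dendritic-like cells it was spread over more, with a UMI in 11 CL, 15 cold and 36 saline cells and levels of 42.6 CPM in CL, 45.8 CPM in cold and 67.9 CPM in saline cells.

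The macrophage-like clusters that held most cells differed between libraries, and the members differed between those clusters. A Saa3/C1qa cluster held 729 of 826 CL, 30 of 212 cold and 153 of 712 saline cells, and a Retnla/Lyve1 cluster 95 CL, 156 cold and 528 saline cells. A Marco/Timd4 cluster held 2 CL, 26 cold and 31 saline cells. Within the Retnla/Lyve1 cluster, Mmp9 had 226 CPM in CL, 342 CPM in cold and 308 CPM in saline cells. In the Saa3/C1qa cluster it had 81.1 CPM in CL, 110 CPM in cold and 105 CPM in saline cells, a log2 ratio of -0.38 in CL over saline. Mmp9 was therefore lowest in CL within both clusters, but by less than 2-fold, and the 2-fold difference of the whole class was not found within either.

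Mmp14 kept its difference within the Saa3/C1qa cluster, with 359 CPM in CL, 10.96 CPM in cold (2 UMIs) and 80.2 CPM in saline cells, a log2 ratio of 2.16 in CL over saline. It was near 0 in the Retnla/Lyve1 cluster, with 1 CL, 1 cold and 2 saline UMIs. The Marco/Timd4 cluster had 178 CPM of Mmp14 in cold and 259 CPM in saline cells. Timp1 in the Saa3/C1qa cluster had 158 CPM in CL, 0 in cold and 55.2 CPM in saline cells, a log2 ratio of 1.52 in CL over saline. Timp2 was highest in cold there, at 523 CPM in CL, 784 CPM in cold and 538 CPM in saline cells, and higher in the Retnla/Lyve1 cluster, at 1451 CPM in CL, 1501 CPM in cold and 1258 CPM in saline cells. Markers of some other classes were higher in the CL library in this class. The 8 monocyte markers summed to 2413 CPM in CL, 260 CPM in cold and 613 CPM in saline macrophage-like cells, with none at 0 in any library. The 8 ASPC markers summed to 563 CPM in CL, 71.2 CPM in cold and 214 CPM in saline cells, with none at 0 in CL or saline and 2 at 0 in cold. The part of these in Mmp14 and Timp1 was not tested.

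**Figure D4:**
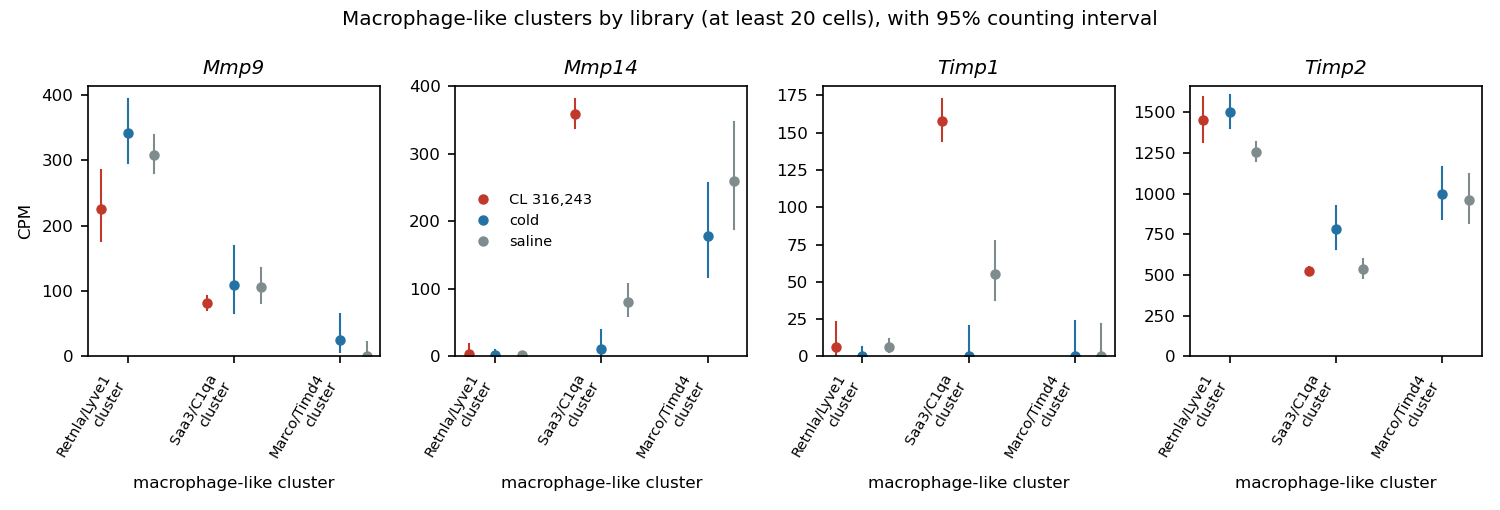
CPM of Mmp9, Mmp14, Timp1 and Timp2 in the 3 macrophage-like clusters, for the CL 316,243, cold and saline libraries with at least 20 cells (points, with 95% counting intervals). Mmp9 and Timp2 are highest in the Retnla/Lyve1 cluster in every library, and Mmp14 in the Saa3/C1qa cluster is at 359 CPM in CL against 10.96 CPM in cold and 80.2 CPM in saline.

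Of 29 related genes tested in macrophage-like cells in CL over saline, 4 were at least 2-fold higher (Plaur, Thbs1, Ctsz and Vcan; 7.52% of all genes). At least 2-fold lower were 4 (6.76%), among them Adam19, Adam33 and Ctsk. Of 28 in cold over saline, 2 were higher (Plau and Adam8; 1.57% of all genes) and 5 lower (Thbs1, Col1a1, Col3a1, Fn1 and Dcn; 3.58%). Of 28 in CL over cold, 7 were higher (10.4%) and 4 lower (7.02%). Col1a1, Col3a1 and Dcn are also among the 8 ASPC markers, which summed to 71.2 CPM in cold and 214 CPM in saline cells of this class. Thbs1 was also a leading gene of a monocyte-like cluster. The part of other cell types in these differences was not tested. Thbs1 (thrombospondin 1, which binds MMP2 and MMP9) had a log2 ratio of 1.34 in CL over saline and -1.56 in cold over saline. Plaur, the urokinase receptor gene, was higher in CL over saline at 1.03, and Plau, urokinase itself, higher in cold over saline at 1.43. Ctsk (cathepsin K, a collagen-cutting cysteine protease) was lower in CL over saline at -1.06.

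In monocyte-like cells (3267 CL, 150 cold and 473 saline cells) Mmp14 was again highest in the CL library, with 256 CPM (247 to 265) in CL, 8.83 CPM (2.87 to 20.6) in cold and 104.4 CPM (89.2 to 121) in saline cells. The cold level rests on 5 UMIs. Of 17 members tested in CL over saline, 5 were 2-fold higher (5.53% of all genes) and 2 lower (3.27%), of 5 in cold over saline 0 higher (2.86%) and 4 lower (8.77%), and of 11 in CL over cold 3 higher (13.6%) and 2 lower (8.44%). The log2 ratio of Mmp14 was 1.29 in CL over saline and -3.56 in cold over saline. The members lower in cold over saline were Mmp14, Timp1, Mmp19 and Timp2.

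Mmp14 levels differed between the 4 monocyte-like clusters, which the libraries filled unequally. A Cxcl2/Clec4e cluster (963 CL, 3 cold and 118 saline cells) had 403 CPM in CL and 299 CPM in saline cells, a log2 ratio of 0.43 (0.16 to 0.71). A Rsad2/Ccl12 cluster (1137 CL, 1 cold and 39 saline cells) had 325 CPM in CL and 182 CPM in saline cells. The Chil3/Treml4 cluster, which held 128 of the 150 cold cells, was low in every library, with 22.3 CPM in CL, 8.67 CPM in cold and 18.4 CPM in saline cells. In a Ccr2/Clec4b1 cluster (601 CL, 18 cold and 190 saline cells) it had 51.3 CPM in CL, 0 in cold and 21.5 CPM in saline cells. Timp1 had 442 CL, 0 cold and 20 saline UMIs in this class, or 37.2 CPM in CL and 12.3 CPM in saline cells. Mmp19 had 84.1 CPM in CL, 38.8 CPM in cold and 129 CPM in saline cells, highest in saline. The 8 ASPC markers summed to 553 CPM in CL, 90.01 CPM in cold and 186 CPM in saline monocyte-like cells, with none at 0, and their part in Mmp14 and Timp1 was not tested.

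Neutrophil-like cells, the class with the highest pooled CPM of Mmp8 and Mmp9, were too few to compare (48 CL, 29 cold and 3 saline cells). Mmp9 had 273 CPM in CL, 1197 CPM in cold and 4227 CPM in saline cells, from 30, 53 and 17 UMIs. Mmp8 had 2 CL, 30 cold and 15 saline UMIs. The saline values rest on 3 cells. In type 2 dendritic-like cells Timp1 had 46 UMIs in CL, 0 in cold and 1 in saline cells, a log2 ratio of 5.94 (3.39 to 11.27) in CL over saline.

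In endothelial-like cells (234 CL, 212 cold and 258 saline cells) Adamts1 was much lower in both treated libraries, and Adamts5 higher. Of 8 members tested in CL over saline, 2 were 2-fold higher (Mmp15 and Adamts5; 3.53% of all genes) and 2 lower (Adamts1 and Timp2; 7.25%). Of 9 in cold over saline, 2 were higher (Adamts5 and Adamts10; 3.42%) and 3 lower (Adamts1, Adamts4 and Timp2; 6.12%). Of 8 in CL over cold, 0 were higher (2.23%) and 1, Timp4, was lower (2.91%). The median log2 ratio over the members tested was -0.63 in CL over saline against -0.02 over all genes, -0.66 in cold over saline against 0.01, and -0.31 in CL over cold against -0.03.

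Adamts1 (chr16:85793827-85803113, -), a secreted protease that cuts versican and aggrecan and is known to restrain angiogenesis, had 370 CPM (321 to 424) in CL, 431 CPM (386 to 479) in cold and 1578 CPM (1486 to 1675) in saline endothelial-like cells. The log2 ratio was -2.09 (-2.32 to -1.88) in CL over saline and -1.87 (-2.05 to -1.70) in cold over saline. The saline library stood alone, and the intervals of the treated libraries overlapped. Nearly all the cells were in 1 cluster (229 CL, 198 cold and 226 saline cells), where Adamts1 had 369 CPM in CL, 395.5 CPM in cold and 1618 CPM in saline cells. Early-response genes moved with it: 10 of them summed to 5212 CPM in CL, 4985 CPM in cold and 13786 CPM in saline cells, and 9 of the 10 were at least 2-fold lower in each treated library. Heat shock genes were also lower: 5 of them summed to 1946 CPM in CL, 1442 CPM in cold and 3049 CPM in saline cells, with 1 of 5 at least 2-fold lower in CL over saline and 4 of 5 in cold over saline. With at most 5% mitochondrial UMIs both differences were still seen, at 373 CPM in CL, 338 CPM in cold and 1534 CPM in saline cells for Adamts1, and 5327 CPM in CL, 5108 CPM in cold and 14306 CPM in saline cells for the early-response genes. The part of either list in the Adamts1 difference was not tested.

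Adamts5 had 120 CPM (92.6 to 152) in CL, 162 CPM (136 to 193) in cold and 52.2 CPM (36.5 to 72.2) in saline endothelial-like cells. Its log2 ratio was 1.20 in CL over saline and 1.64 (1.09 to 2.21) in cold over saline, opposite in sign to that of Adamts1, its neighbour on the chromosome. Adamts5 is also a gene of ASPC-like cells, whose 8 markers summed to 2307 CPM in CL, 1289 CPM in cold and 1284 CPM in saline endothelial-like cells, with none at 0 in any library. Their part in the Adamts5 differences was not tested. Adamts9, a proteoglycanase, had 221 CPM in CL, 190 CPM in cold and 323 CPM in saline cells, and Adamts4 had 12 CL, 8 cold and 30 saline UMIs. The ADAMTS sum was 782 CPM in CL, 833 CPM in cold and 2014 CPM in saline cells, most of its difference being Adamts1.

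The inhibitors of endothelial-like cells each had their own pattern. Timp4 had 345 CPM (297 to 397) in CL, 718 CPM (660 to 779) in cold and 414.5 CPM (368 to 465) in saline cells, highest in cold, with a log2 ratio of -1.06 (-1.30 to -0.82) in CL over cold. Timp3 had 990 CPM in CL, 1024 CPM in cold and 1622 CPM in saline cells. Timp2 had 59.9 CPM in CL, 82.4 CPM in cold and 184 CPM in saline cells. Timp2 and Timp3 were thus highest in saline, and Timp1 was not among the members with 20 UMIs. Mmp15 (MT2-MMP) had 88.9 CPM in CL, 49.9 CPM in cold and 37.7 CPM in saline cells. Of 24 related genes tested in CL over saline, 4 were higher (3.53% of all genes) and 5 lower (7.25%). Of 26 in cold over saline, 3 were higher (3.42%) and 3 lower (6.12%). Among them, Thbs1 was lower in both treated libraries, at -2.52 in CL over saline and -2.32 in cold over saline.

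Pericyte/smooth muscle-like cells (84 CL, 75 cold and 121 saline cells) had less Adamts1, Adamts4 and Adamts5 in both treated libraries than in saline. Of 9 members tested in CL over saline, 0 were higher (3.5% of all genes) and 4 lower (6.24%), and of 12 in cold over saline 0 were higher (5.08%) and 5 lower (5.7%). Of 11 in CL over cold, 1 was higher (2.73%) and 1 lower (4.1%). The 4 lower in CL over saline were Adamts1, Adamts4, Adamts5 and Adamtsl1, and the same 4 with Adamts9 were lower in cold over saline. Of the proteoglycanases, 3 of 4 tested were thus lower in CL over saline and 4 of 5 in cold over saline, and Adamts15 was within 2-fold in cold over saline, with 42.9 CPM in CL, 38.4 CPM in cold and 32.9 CPM in saline cells.

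Adamts1 had 638 CPM in CL, 558 CPM in cold and 1769 CPM in saline pericyte/smooth muscle-like cells, with log2 ratios of -1.47 (-1.68 to -1.27) in CL over saline and -1.67 (-1.86 to -1.48) in cold over saline. Adamts4 had 141 CPM in CL, 60.3 CPM in cold and 487 CPM in saline cells, with log2 ratios of -1.79 and -3.01 (-3.58 to -2.49). Adamts5 had 37.8 CPM in CL, 42.1 CPM in cold and 106 CPM in saline cells, so it was highest in saline here and lowest in saline in endothelial-like cells. Timp4 had 131 CPM in CL, 267 CPM in cold and 146 CPM in saline cells, highest in cold as in endothelial-like cells, and Timp3 had 1538 CPM in CL, 2253 CPM in cold and 2026 CPM in saline cells.

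The pericyte/smooth muscle-like class was not pure. The 9 endothelial markers summed to 5586 CPM in CL, 6224 CPM in cold and 4293 CPM in saline cells, beside 6577 CPM in CL, 4180 CPM in cold and 7628 CPM in saline cells for its own 9 markers, with none at 0 in any library. Early-response genes summed to 8900 CPM in CL, 11378 CPM in cold and 13803 CPM in saline cells, with 2 of 10 past 2-fold in CL over saline and 0 in cold over saline. The 5 heat shock genes summed to 2151 CPM in CL, 2249 CPM in cold and 3061 CPM in saline cells. The part of these in these differences was not tested. With at most 5% mitochondrial UMIs only 17 CL, 18 cold and 17 saline cells were left, and Adamts1 had 336 CPM in CL, 706 CPM in cold and 972 CPM in saline cells, a log2 ratio of -0.46 in cold over saline. Adamts9 turned to 0.39 there, against -1.49 in all cells. Lymphatic endothelial-like cells (13 CL, 25 cold and 70 saline cells) also had least Adamts1 in the treated libraries, with 447.5 CPM in CL, 577 CPM in cold and 1385 CPM in saline cells.

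**Figure D5:**
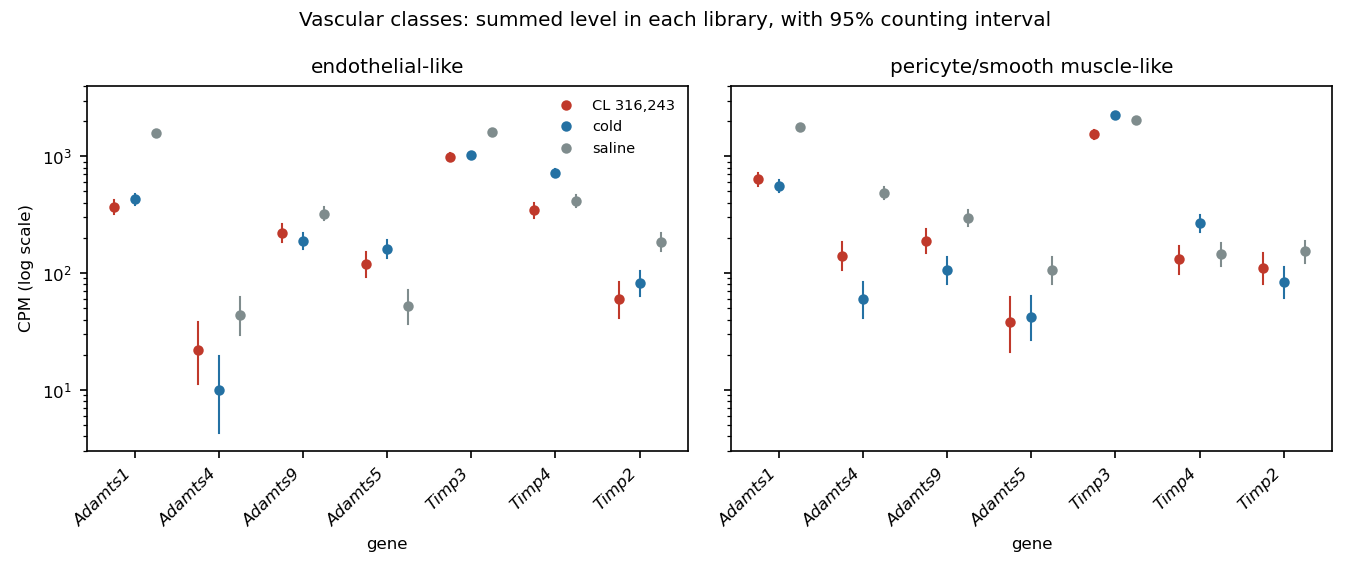
Summed level of 7 members in endothelial-like and pericyte/smooth muscle-like cells, as CPM on a log scale, for the CL 316,243, cold and saline libraries (points, with 95% counting intervals). Adamts1 is highest in saline in both classes, and Adamts5 is lowest in saline in endothelial-like cells (52.2 CPM) and highest in saline in pericyte/smooth muscle-like cells (106 CPM).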

How the data were processed

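Single-cell RNA libraries (10x Chromium 3' v3) of inguinal stromal vascular cells were used, 1 per treatment. The deposited matrices give raw counts (UMIs for each gene in each barcode), which the authors made with Cell Ranger 3.0.2 per the file headers, on the build mm10 per the submitters' processing notes. For annotation and strand setting nothing is given in the sources used here.

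The members and all gene lists were chosen with earlier results of these data known, and the early-response and heat shock lists after their values were seen. Barcodes needed 500 genes and at most 15% mitochondrial UMIs. Scrublet, in scanpy 1.11.5, then removed 55 CL, 4 cold and 87 saline cells as doublets. The cold figure is 0.104% of its cells, against 0.820% in CL and 1.39% in saline, so doublets may remain there. No correction for free RNA was made. Each cell's counts were brought to a total of 10000 and log-transformed. From 2000 variable genes, less the 19 members among them, 30 principal components and 15 neighbours gave 31 Leiden clusters (leidenalg 0.10.2, resolution 1, seed 1). A cluster was named for the class whose markers had the highest mean log2 fold (pseudocount 20 CPM), with at least 3 markers passing.

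UMIs were summed per class and library. A member counted as differing at a log2 ratio of at least 1 either way, with at least 20 UMIs in the library with more. A count of 0 took a floor of 3 counts per library. Intervals were computed with scipy 1.17.1. No test was run, since each treatment has 1 library. Members were named in a class where they had at least 50 UMIs in a library and at least 0.25 of their highest CPM over classes, which gave 50 pairs of gene and class over 26 members. Those of the 2-fold counts that fell outside this rule, the neutrophil-like and Schwann-like values and the related genes singled out were added after their values were seen. The alternatives changed 1 choice at a time: cell filters, doublets, clustering, scaling, count minimum, fold limit, single cells and clusters. The counting steps were checked on simulated data.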

Additional observations from a re-analysis of the deposited data

Results flagged for a closer look

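Some member RNA lay in barcodes that were left out. In CL barcodes under 500 genes Mmp9 had 91.7 CPM (92 UMIs), against 15.01 CPM in the CL cells kept. Of these UMIs, 47 were in 90 barcodes with at least 5 UMIs of the neutrophil gene S100a9, which had 2259.5 CPM in such CL barcodes against 54.6 CPM in cold and 205 CPM in saline ones. The gene minimum thus left out Mmp9-bearing barcodes mainly of the CL library. In the same CL barcodes Timp4 had 21.9 CPM (22 UMIs), against 9.77 CPM in CL cells. Among barcodes over 15% mitochondrial UMIs, Mmp12 had 454 CPM in cold (207 UMIs in 181 barcodes), against 19.2 CPM in cold cells. Adamts1 had 223 CPM in CL barcodes over that limit and 887 CPM in saline ones, against 109 CPM in CL and 276 CPM in saline cells. Adamts4 had 193 CPM and Adamts9 169.5 CPM in those saline barcodes, against 37.0 and 25.6 CPM in saline cells.

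A few members passed 2-fold in opposite directions in different classes, which was not tested. Adamts5 was higher in endothelial-like and lower in pericyte/smooth muscle-like cells, at log2 ratios of 1.20 and -1.48 in CL over saline and 1.64 and -1.33 in cold over saline. Mmp9 was higher in monocyte-like cells in CL over saline at 2.77, from 50 CL UMIs and 1 saline UMI, and lower in macrophage-like cells at -1.30. Mmp19 was higher in type 2 dendritic-like cells at 1.29 and lower in monocyte-like cells at -1.73 in cold over saline. Between CL and cold it was higher in CL in monocyte-like cells at 1.11 and lower in type 2 dendritic-like cells at -2.25. Mmp14 in CL over cold was higher in monocyte-like cells at 4.86 and macrophage-like cells at 3.27, and lower in type 2 dendritic-like cells at -1.18.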

How the results depend on the processing

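Of 124 ratios of a named member in its class, 34 passed 2-fold, and 20 of these stayed past 2-fold in the same direction under all 13 settings they could be computed for. The like share over all genes is not given, and every setting used the same 1 library per treatment. The counts therefore describe the settings and are not a result about the members. Over 383 alternative values of the 34, 23 were under 2-fold and 2 turned round, both with at most 5% mitochondrial UMIs: Mmp12 in macrophage-like cells, cold over saline, at -1.51, and Adamts9 in pericyte/smooth muscle-like cells, cold over saline, at 0.39, from 0 and 22 cold UMIs. Most of the 23 came from the largest cluster of a class (8) or resolution 0.5 (5). In the largest cluster Timp1 in ASPC-like cells had a log2 ratio of 1.08 in CL over saline, and Timp3 there had -0.41. Mmp9 in macrophage-like cells, CL over saline, was -0.16 at resolution 0.5, where a Saa3-led cluster of 2907 cells (2684 CL, 4 cold and 219 saline) got no class name and 225 CL cells were left as macrophage-like.

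The number of members past 2-fold moved with several settings. In ASPC-like cells it was 2 in CL over saline, and 4 with no filter on low counts and 5 at a limit of 1.5-fold. In cold over saline it was 2, and 7 with no filter and 1 in the largest cluster. In CL over cold it was 5, and 12, 1 and 11 under these 3 settings (no filter, largest cluster, 1.5-fold). In macrophage-like cells, CL over saline, it was 6, and 10 with no filter and 3 with each of resolution 0.5, at least 50 UMIs, without the 3 cells with most UMIs, and the largest cluster. In CL over cold it was 6, and 10 with no filter and 3 at resolution 0.5 and in the largest cluster. In cold over saline it was 4, and 1 with at least 50 UMIs. In endothelial-like cells, CL over saline, it was 4, and 8 with no filter. In cold over saline it was 5, and 10 with no filter, 8 at 1.5-fold, 3 with at least 50 UMIs or in the largest cluster, and 2 at 5% mitochondrial UMIs. In CL over cold it was 1, and 6 with no filter and 2 at 1.5-fold or with doublets kept. The share of all genes past the limit under each setting is not given beside these counts. They therefore describe the settings and are not a result about the members. Beyond what these settings do by construction, the cause was not tested.

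No paired analysis was possible because each treatment has 1 library. Depth limits rare genes: 11 members had under 20 UMIs over all cells, and no level or difference is given for them beyond the 0 of Mmp1a and Mmp1b.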
